A study of Mus musculus with 18 samples.

Results

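Apod and Pla1a encode a pair of secreted proteins that act on lipids, and both lie on mouse chromosome 16. Apod (apolipoprotein D, ENSMUSG00000022548) and Pla1a (phospholipase A1 member A, ENSMUSG00000002847) were found in the count matrix by their symbols, with 1 row each, so that 2 of its 40620 rows are described. They had been chosen from these same libraries because their counts were higher at the later times, so their differences between times are given as a description, without a test. Only the comparisons between constructs were tested for them.

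The libraries came from MC3T3-E1, a preosteoblast line from mouse calvaria whose genotype every label gives as wild type, and which stably expressed 1 of 3 short hairpin constructs. The control was shScramble, and shRcor2-18 and shRcor2-20 were directed against Rcor2, a corepressor that works with REST and histone demethylases. RNA was sequenced at 0h, 24h and 7d in 2 samples per construct and time, which makes 18 libraries in 9 groups. The series asked what silencing of Rcor2 does while these cells become osteoblasts. The medium for differentiation was supplemented with 5 mM beta-glycerophosphate, 50 µg/ml ascorbic acid and the glucocorticoid dexamethasone (10 nM), per the labels' protocols, which name 24 hours, day 14 and day 21 but not 7d. Times are therefore given as the titles state them; the labels do not settle the disagreement, which touches every 7d value. The protocols do not say which medium the 0h cells were in. Everything comes from 1 cell line. Whether the samples of a group came from different cultures is not in the labels, and p-values therefore measure only how these samples vary, a spread that may be technical.

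Apolipoprotein D is a lipocalin, a small barrel-shaped carrier that binds fatty acids such as arachidonic acid, and it is unrelated in fold to most other apolipoproteins. It is known as a transcript that accumulates in fibroblasts when they stop dividing and in glia under oxidative stress. Pla1a is a secreted enzyme of the pancreatic lipase family that cuts a fatty acid from phosphatidylserine and leaves lysophosphatidylserine, a lipid messenger that acts through G protein-coupled receptors. Neither gene is a standard marker of the osteoblast.

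Row names of this matrix match the reads only along parts of each chromosome. The parts were judged from genes that nearly all cells express, and the names were taken as correct for a stretch of chromosome 16 from Mefv to Cbr3 that holds 610 of its 646 protein-coding rows, Apod and Pla1a among them. Of 64 broadly expressed genes listed for this stretch, 63 had a mean of at least 20 CPM (counts per 1000000 counts of a library, after TMM scaling), with a median of 225 CPM. The exception was Sod1, a superoxide dismutase, at 7.21 CPM. Because the stretch was itself judged from such genes, this count describes the choice and is no independent check. It also cannot show that the name of a row expressed in few cell types is right. Outside the stretch, Sparc and Col1a2, abundant osteoblast matrix genes, had means of 0.048 and 0.64 CPM under their own names, so no level is read from names there. The labelled cell type could thus hardly be checked, since 1 of 12 osteoblast markers lay in the stretch, the secreted peptide gene Ostn, and its summed level was 0 to 0.487 CPM at 7d. The row named Rcor2 lies elsewhere in the genome and held 202 to 268 CPM in libraries labelled shScramble, 201 to 297 CPM in those labelled shRcor2-18 and 203 to 281 CPM in those labelled shRcor2-20, and because its name is not assured it does not check the construct labels. Sample 1 of each construct at 0h was left out: over all rows, these 3 libraries correlated with each other at 0.991 to 0.995 on the log2 scale but with the other 15 at only 0.860 to 0.874, where those 15 correlated at 0.946 to 0.968. The 15 libraries held 3504808 to 6139315 counts each.

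In the annotation of GRCm38 used here (the submitters' notes name mm9 for the alignment, so these are not the positions of the alignments), Apod spans chr16:31296192-31314808 and Pla1a spans chr16:38396117-38433145, both on the minus strand. Their exons cover 2577 and 2009 bases after overlapping exons are joined, and 0 other rows of the matrix overlap either gene. The 250 bases upstream of the Apod start in RefSeq on GRCm38.p6, chr16:31314809-31315058, minus strand, are shown so that the gene with the larger difference between times can be read beside its own upstream DNA. Capitals mark the matches found for 2 of 8 motifs searched on both strands.
Apod upstream: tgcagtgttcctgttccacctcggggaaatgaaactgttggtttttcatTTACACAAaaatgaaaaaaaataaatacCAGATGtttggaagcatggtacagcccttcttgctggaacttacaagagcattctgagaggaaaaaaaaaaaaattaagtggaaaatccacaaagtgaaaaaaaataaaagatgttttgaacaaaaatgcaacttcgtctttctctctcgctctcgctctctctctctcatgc
The first capitals, 201 bases before the start, match on the other strand the C/EBP motif TTNNGNAA, which 36.8% of 32851 promoters of this length hold. The second, 173 bases before the start, match the E-box CANNTG, which 66.2% of them hold. No match was found for the TATA box TATAAA, the CCAAT box CCAAT, the GC box GGGCGG, the Runx motif TGTGGT, the glucocorticoid receptor motif AGAACA or the serum response element. A and T made up 63.6% of the bases, against a median of 47.6% over those promoters. A match describes letters only, and no binding was measured.

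Apod was scarcely present at 0h and abundant at 7d. The 3 libraries at 0h held 4.06 CPM with shScramble, 10.5 CPM with shRcor2-18 and 9.0 CPM with shRcor2-20, from counts of 17, 47 and 35. At 24h the values were 11.01 and 18.0 CPM in samples 1 and 2 of shScramble, 9.60 and 38.0 CPM with shRcor2-18, and 25.02 and 37.1 CPM with shRcor2-20. At 7d they were 158 and 752 CPM with shScramble, 130 and 393 CPM with shRcor2-18, and 683 and 440 CPM with shRcor2-20, from counts of 533 to 2762. All libraries at 7d lay above all at 24h, the lowest being 3.42 times the highest, and the lowest at 7d was 12.4 times the highest at 0h. At 24h, by contrast, 5 of 6 libraries lay above all of 0h and sample 1 of shRcor2-18 did not. The means were 7.84 ± 3.36 CPM at 0h (SD, n = 3), 23.1 ± 12.4 CPM at 24h (n = 6) and 426 ± 258 CPM at 7d (n = 6).

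In the model fitted to all rows (edgeR, averaged over the constructs), the log2 difference of Apod from 0h to 24h was 1.60 ± 0.71 (SE). From 24h to 7d it was 4.20 ± 0.56, an 18.4-fold difference, and from 0h to 7d it was 5.80 ± 0.84, or 55.6-fold. With 1 library at 0h per construct, the 0h groups were assumed to vary like the others. All constructs shared the direction from 24h to 7d, with 4.97 ± 1.00 for shScramble, 3.45 ± 0.93 for shRcor2-18 and 4.17 ± 0.96 for shRcor2-20. Taken library by library, with samples matched by number, the ratio of 7d to 24h ran from 10.3 (shRcor2-18, sample 2) to 41.8 (shScramble, sample 2). In bulk RNA, more cells with the transcript and more transcript per cell cannot be told apart.

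**Figure D1:**
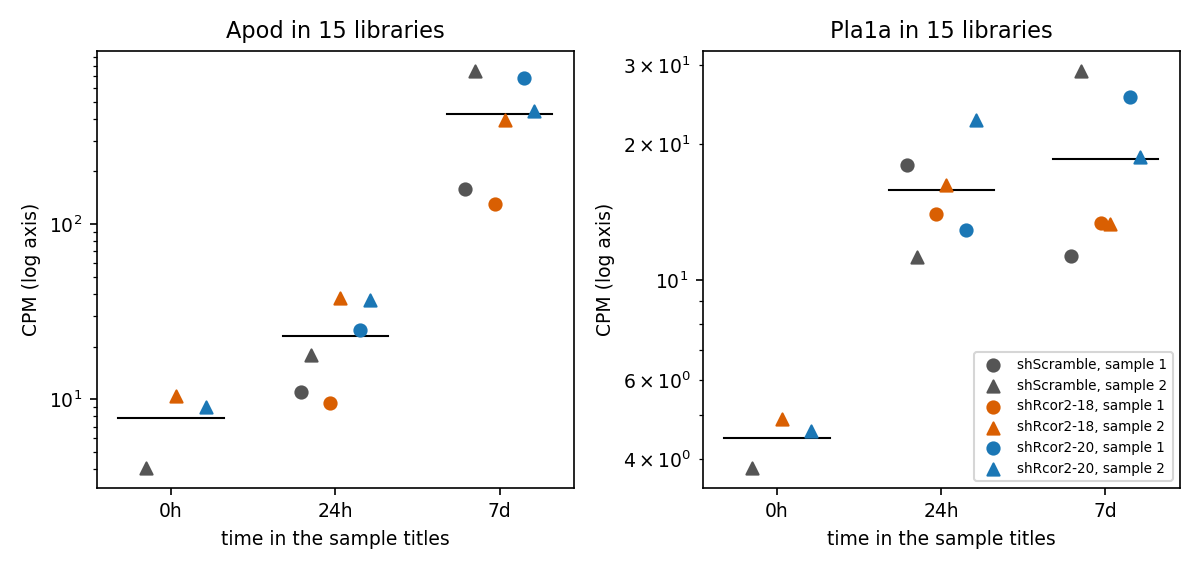
CPM of Apod (left) and Pla1a (right) in 15 libraries against the time in the sample titles, on log axes; colours mark constructs, circles and triangles samples 1 and 2, and the lines are means per time. Apod at 7d, 130 to 752 CPM, lies above every earlier library, whereas Pla1a at 24h and 7d overlaps.

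Pla1a, at much lower counts, had its step earlier. At 0h the libraries held 3.82, 4.90 and 4.63 CPM with shScramble, shRcor2-18 and shRcor2-20, from 16 to 22 counts. At 24h samples 1 and 2 held 18.0 and 11.3 CPM with shScramble, 14.0 and 16.2 CPM with shRcor2-18, and 12.9 and 22.6 CPM with shRcor2-20. At 7d the same order gave 11.3 and 29.2 CPM, 13.4 and 13.3 CPM, and 25.5 and 18.8 CPM, from 43 to 103 counts. Every library at 24h and every library at 7d lay above all of 0h, the lowest at 2.30 times the highest 0h value in both cases. Between 24h and 7d the libraries overlapped, and 2 of 6 at 7d, sample 2 of shScramble and sample 1 of shRcor2-20, lay above all of 24h. The mean was 4.45 ± 0.56 CPM at 0h (SD, n = 3), 15.8 ± 4.10 CPM at 24h (n = 6) and 18.6 ± 7.32 CPM at 7d (n = 6).

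The fitted log2 difference of Pla1a was 1.83 ± 0.39 from 0h to 24h, a 3.55-fold difference, and 2.03 ± 0.39 from 0h to 7d, or 4.08-fold. From 24h to 7d it was 0.20 ± 0.28. Without sample 2 of shScramble at 7d that difference was -0.08, so its sign rests on 1 library. By construct it was 0.46 ± 0.49 for shScramble, -0.18 ± 0.49 for shRcor2-18 and 0.32 ± 0.49 for shRcor2-20, and the ratios of single libraries with the same number ran from 0.63 to 2.59. These times were among the values that led to the choice of both genes, and the share of all rows that behaved alike serves as background only. Every 24h library lay above every 0h library for 4.09% of 12930 rows tested and 7.24% of the 373 tested in the stretch, every 7d library above every 0h library for 7.14% and 18.5%, and every 7d library above every 24h library for 2.59% and 9.12%.

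The left-out libraries differ between the genes. In sample 1 at 0h, Apod had 2, 11 and 49 counts with shScramble, shRcor2-18 and shRcor2-20, which is 0.778, 1.53 and 5.00 CPM by library size alone. Pla1a had 16, 56 and 80 counts there, or 6.22, 7.80 and 8.16 CPM. For Apod 2 of these 3 lie below the lowest retained 0h library, and for Pla1a all 3 lie above the highest. With all 18 libraries the log2 difference from 0h to 24h became 2.20 for Apod and 1.37 for Pla1a.

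Per kilobase of exon, the level of Apod was 3.04 CPM per kb at 0h, 8.97 at 24h and 165 at 7d. That moved its place among the 610 coding rows of the stretch, ordered from the highest, from 323 to 267 and then to 18. Pla1a had 2.21, 7.89 and 9.24 CPM per kb, at places 332, 274 and 270. On this scale both genes were at similar levels at 0h and 24h: the ranges were 1.58 to 4.06 for Apod against 1.90 to 2.44 for Pla1a at 0h, and 3.72 to 14.7 against 5.60 to 11.3 at 24h. At 7d they no longer overlapped, with 50.4 to 292 CPM per kb for Apod and 5.61 to 14.5 for Pla1a.

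Libraries at 7d differed from each other far more for Apod than for most genes. The highest, sample 2 of shScramble with 752 CPM, was 5.79 times the lowest, sample 1 of shRcor2-18 with 130 CPM, and the SD of log2 CPM was 1.06 over the 6 libraries. Counting error was small beside this, since the 95% Poisson intervals of these libraries were 723 to 781 CPM and 119 to 141 CPM. For Pla1a the highest was 2.59 times the lowest and the SD was 0.56, with intervals of 23.7 to 35.5 CPM in sample 2 of shScramble and 8.16 to 15.2 CPM in sample 1. These Poisson intervals cover counting error only, since the reads carry no molecular identifiers in the sources used here. The SD of Apod exceeded that of 94.6% of 6449 rows tested that had a mean of at least 10 CPM at 7d and a count in all 6 libraries, and 98.8% of the 331 such rows in the stretch, where the median SD was 0.19 and 3 rows had a larger one. That of Pla1a exceeded 83.8% and 96.1%. At 24h the SD was 0.85 for Apod, above 98.8% of 327 rows in the stretch, and 0.36 for Pla1a, above 89.3%.

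**Figure D2:**
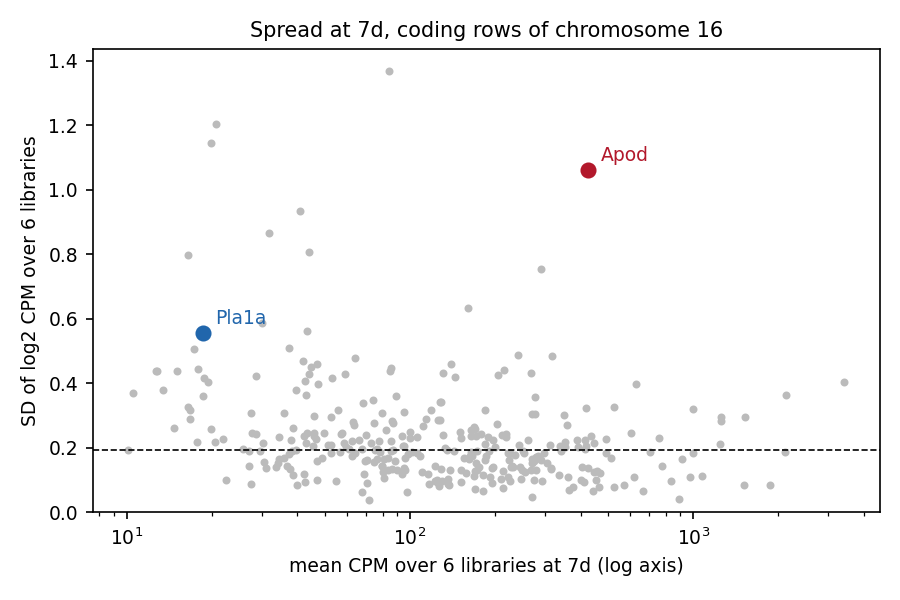
SD of log2 CPM over the 6 libraries at 7d (vertical axis) against mean CPM at 7d (horizontal, log axis); each grey point is 1 of 331 rows of the chromosome 16 stretch, and the dashed line is their median, 0.19. Apod, at an SD of 1.06, has 3 rows above it, and Pla1a stands at 0.56.

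Samples of the same construct stood apart. For shScramble the 2 samples at 7d were the second lowest and the highest for Apod, 158 and 752 CPM, a ratio of 4.75. The ratio of the higher to the lower sample was 3.02 for shRcor2-18 and 1.55 for shRcor2-20. Of the 7d libraries, sample 2 of shScramble, the highest for Apod, had the fewest counts, 3504808. Sample 2 of shRcor2-18, the third lowest for Apod, had the most, 4639679. Sample 1 of shScramble, the second lowest for Apod, had 3735886 counts. The first samples of shRcor2-18 and shRcor2-20, at 130 and 683 CPM of Apod, had 4176008 and 4168233. Sample 2 of shRcor2-20, at 440 CPM, had 4550640. The part of depth in the spread was not tested. Over the rows of the stretch other than Apod and Pla1a, each library at 7d was nearest to a library of another construct. The first samples of shScramble and shRcor2-18 were nearest to each other (root mean square log2 distance 0.22). So were the second sample of shScramble and the first of shRcor2-20 (0.34), and the second samples of both hairpins (0.32). The samples of 1 group lay 0.43 to 0.55 apart. The same 3 pairs of labels were mutually nearest at 24h, at 0.24, 0.31 and 0.17. The labels give no reason for these pairs, and whether each library carries the construct of its label was not tested. Every value by construct and every test of the constructs rests on those labels.

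Read by these pairs, Apod at 7d was 158 and 130 CPM in the first, 393 and 440 CPM in the last, and 752 and 683 CPM in the remaining pair, so partners differed 1.22-, 1.12- and 1.10-fold and the pairs did not overlap. At 24h the pairs held 11.01 and 9.60, 38.0 and 37.1, and 18.0 and 25.02 CPM, again without overlap but in another order. Pairs without overlap were common: 32.8% of 332 stretch rows with at least 10 CPM at 7d had them (16.8% of 6625 rows overall), 14.2% (4.21%) in the order of Apod, and at 24h 30.0% of 327 rows. Rows of the stretch also set the pairs, so the shares in the stretch are partly built in. For Pla1a at 7d the pairs held 11.3 and 13.4, 13.3 and 18.8, and 29.2 and 25.5 CPM, and the lower pairs overlapped. The highest pair was therefore the same for both genes at 7d. The share of rows with this highest pair was not counted, so nothing is read from it.

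**Figure D3:**
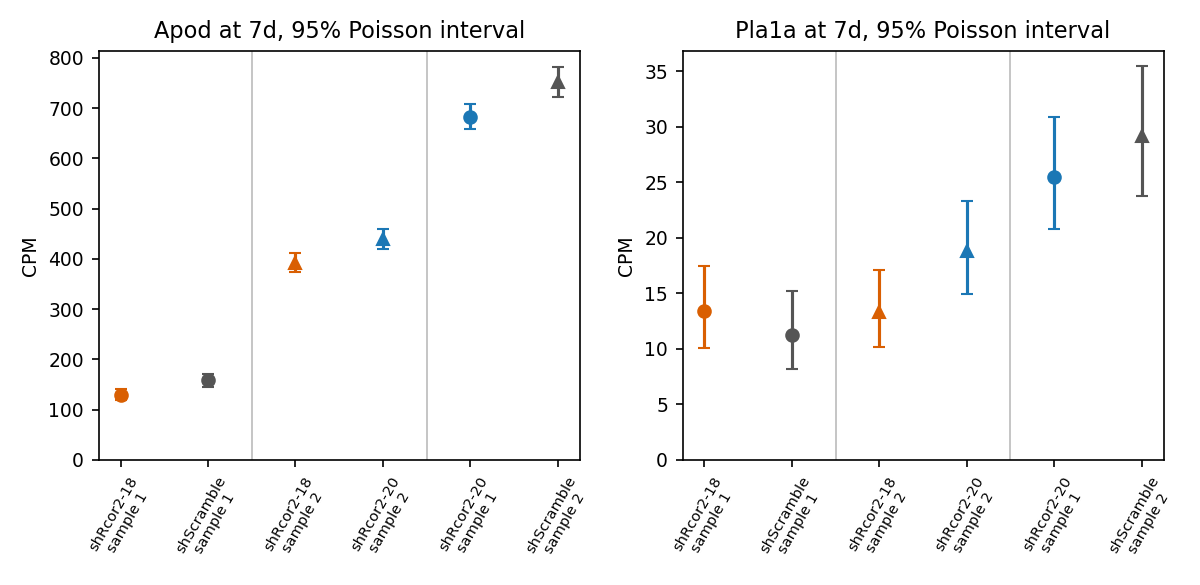
CPM of Apod (left) and Pla1a (right) in each library at 7d with 95% Poisson intervals; grey lines part the pairs of libraries that were nearest to each other over the other rows of the stretch. Apod falls at 130 to 158, 393 to 440 and 683 to 752 CPM, and the samples of shScramble stand at 158 and 752.

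Among DNA replication genes of the stretch, Mcm4, a subunit of the replicative helicase, had its pairs at 7d in the order of Apod without overlap. So did 14.2% of 332 stretch rows with at least 10 CPM at 7d. In the other 3 listed the pairs overlapped. It held 177 and 182 CPM in the pair lowest for Apod, 273 and 276 CPM in the middle pair, and 334 and 362 CPM in the highest. Cdc45, a partner of that helicase, held 34.6 and 44.8 CPM in the lowest pair, 53.9 and 43.7 CPM in the middle one and 74.1 and 68.0 CPM in the highest. In the same sequence of pairs, Rfc4 held 24.6 and 42.7, 33.1 and 41.9, and 52.2 and 43.3 CPM, and Donson 54.5 and 47.5, 43.9 and 58.4, and 61.0 and 49.2 CPM. Adamts1, a secreted protease, ran the other way at the low end, at 4924 and 4500 CPM in the lowest pair for Apod and 2689 to 2884 CPM in the other 4 libraries. Btla, an inhibitory receptor of lymphocytes, had 62.7 and 67.0 CPM in that lowest pair, 18.6 and 20.4 CPM in the middle pair and 47.6 and 47.2 CPM in the highest. The collagen gene Col8a1 kept the order of Apod without overlap, at 1136 and 1175, 1665 and 1680, and 1771 and 1750 CPM. Fstl1, a secreted glycoprotein, held 1545 and 1561, 2698 and 2756, and 2089 and 2080 CPM. The share of rows in the orders of Adamts1, Btla and Fstl1 was not counted. All these genes were among the rows that set the pairs, so likeness between their partners is partly built in. The part of these genes in the spread of Apod was not tested.

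No test of the constructs passed the threshold for either gene. Over 6 comparisons and both genes, 0 of 12 tests passed an adjusted p of 0.05 with edgeR, 0 had an unadjusted p under 0.05, and DESeq2 gave 0 as well. With hairpins averaged and set against shScramble at 24h, the log2 difference was 0.91 ± 0.79 for Apod (edgeR adjusted p = 1.00, 95% interval -0.91 to 2.73) and 0.16 ± 0.42 for Pla1a (adjusted p = 1.00, -0.81 to 1.13), where 0.0155% of all rows tested were called. At 7d it was -0.25 ± 0.72 for Apod (edgeR adjusted p = 1.00, -1.89 to 1.39) and -0.23 ± 0.42 for Pla1a (adjusted p = 1.00, -1.19 to 0.73), with 0.0387% of rows called. On the linear scale the 7d interval for Apod runs from 0.270-fold to 2.63-fold, so that large differences in either direction remain possible. Averaged over 24h and 7d the difference was 0.33 ± 0.53 for Apod and -0.04 ± 0.30 for Pla1a, with 0.0464% of rows called.

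The hairpins were also set against each other. At 24h shRcor2-20 minus shRcor2-18 was 0.38 ± 0.88 for Apod and 0.23 ± 0.49 for Pla1a (edgeR adjusted p = 1.00 for both), with 0.0155% of rows called. At 7d it was 1.10 ± 0.84 for Apod (95% interval -0.83 to 3.04) and 0.73 ± 0.49 for Pla1a (-0.40 to 1.85), with 0.0309% called and adjusted p = 1.00 for both. For Apod the samples at 7d held 440 and 683 CPM with shRcor2-20 and 130 and 393 CPM with shRcor2-18. For Pla1a they held 18.8 and 25.5 CPM against 13.3 and 13.4 CPM. The hairpins did not overlap, but the share of all rows with this order was not counted, so nothing is read from it. The change of the hairpin difference from 24h to 7d was -1.16 ± 1.06 for Apod and -0.39 ± 0.60 for Pla1a (edgeR adjusted p = 1.00 for both), with 0.0541% of rows called. Single libraries decide the sign of several of these differences. Hairpins minus shScramble at 7d was 1.28 for Apod and 0.61 for Pla1a without sample 2 of shScramble at 7d, and -0.97 and -0.76 without sample 1. The change of that difference from 24h to 7d was 0.36 for Apod and 0.45 for Pla1a without the same sample 2, and -1.89 and -0.93 without sample 1. At 24h hairpins minus shScramble ran from 0.26 (without sample 2 of shRcor2-18) to 1.29 (without sample 2 of shScramble) for Apod, and for Pla1a from -0.15 to 0.54 without samples 2 and 1 of shScramble. Between the hairpins at 24h, the value for Apod was -0.29 and 1.69 without samples 1 and 2 of shRcor2-18, and for Pla1a -0.23 and 0.58 without samples 2 and 1 of shRcor2-20. At 7d it was 0.52 and 2.11 for Apod without samples 1 and 2 of shRcor2-18.

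**Figure D4:**
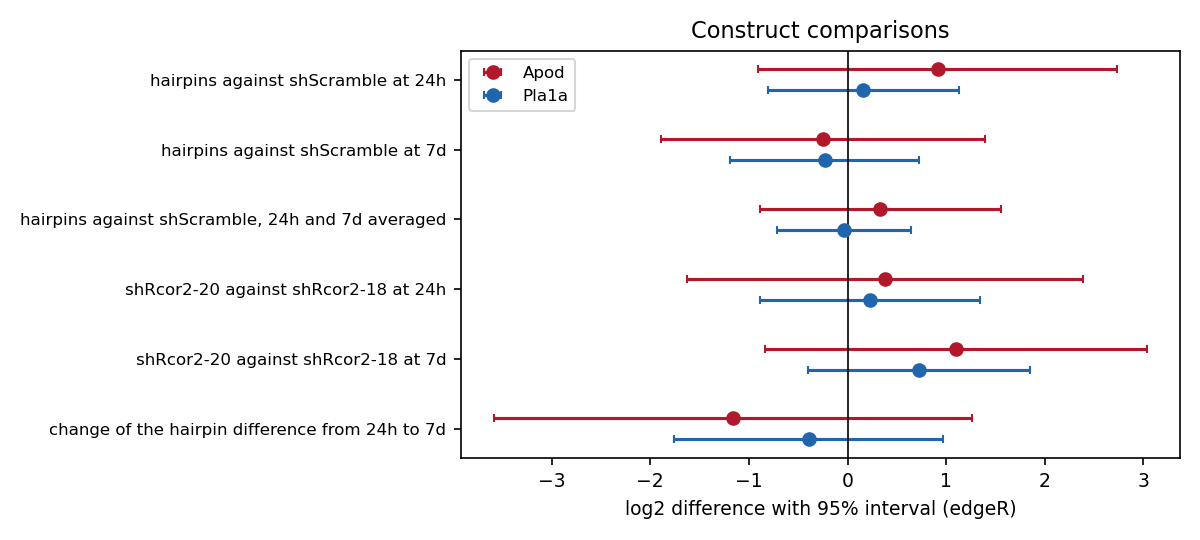
Log2 differences between constructs with 95% intervals from edgeR for Apod (red) and Pla1a (blue). Each interval includes 0, and those of Apod are the wider, for example -1.89 to 1.39 for hairpins against shScramble at 7d.

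The nearest protein-coding genes on either side were measured in the same libraries. Beside Apod, Ppp1r2, an inhibitor of protein phosphatase 1, was at 184 ± 59.7 CPM at 0h (SD, n = 3) and 205 ± 54.9 CPM at 7d (n = 6), and Acap2, a GTPase-activating protein, at 354 ± 29.2 and 391 ± 53.2 CPM. On the other side Bdh1, a ketone body dehydrogenase, had a mean of 0.124 CPM and Dlg1, a scaffold protein, 474 CPM, with 447 ± 50.1 CPM at 0h and 453 ± 31.4 CPM at 7d. Beside Pla1a, Adprh, an ADP-ribosylhydrolase, was at 259 ± 3.07 CPM at 0h and 269 ± 31.5 CPM at 7d. Cd80, a costimulatory ligand, was at 169 ± 18.6 CPM at 0h and 212 ± 34.7 CPM at 7d. Popdc2 and Gm21987, on the near side of Pla1a, had means of 0.965 and 0.083 CPM. The fitted log2 difference from 0h to 7d of the 5 neighbours with a fit was between 0.02 and 0.32, against 5.80 for Apod and 2.03 for Pla1a.

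Pattern over libraries was compared by Pearson's r of log2(CPM + 1) over the 15 libraries, among 332 rows of the stretch with a mean of at least 10 CPM. The libraries share their times, and at 24h and 7d they fall into the pairs above. Closest to Apod were Ubn1, a histone chaperone subunit (r = 0.95), Col8a1, a collagen VIII chain (0.92), Ppl, the cytolinker periplakin (0.91), Mylk, the myosin light chain kinase (0.91), and Arvcf, a catenin (0.91). Over the 6 libraries at 7d alone r with Apod was 0.91 for Ubn1, 0.96 for Col8a1, 0.66 for Ppl, 0.16 for Mylk and 0.92 for Arvcf. Their ranges were narrow beside that of Apod: Ubn1 went from 265 ± 6.01 CPM at 0h (mean ± SD, 3 libraries) to 336 ± 26.8 CPM at 7d (n = 6), and Col8a1 from 714 ± 107 to 1529 ± 293 CPM. Pla1a stood at place 57 for Apod, with r = 0.68, and Apod at place 27 for Pla1a. Among the closest to Pla1a were Cblb, a ubiquitin ligase (r = 0.89), D16Ertd472e (0.88), Smim11, a small membrane protein (0.86), and Eva1c (0.85). At 7d alone r with Pla1a was 0.38, 0.69, 0.53 and 0.55 in that order, and 0.87 for Apod. Cblb went from 89.9 ± 15.2 CPM at 0h to 172 ± 10.2 CPM at 24h and 196 ± 18.97 CPM at 7d, which like Pla1a put most of the difference before 24h.

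**Figure D5:**
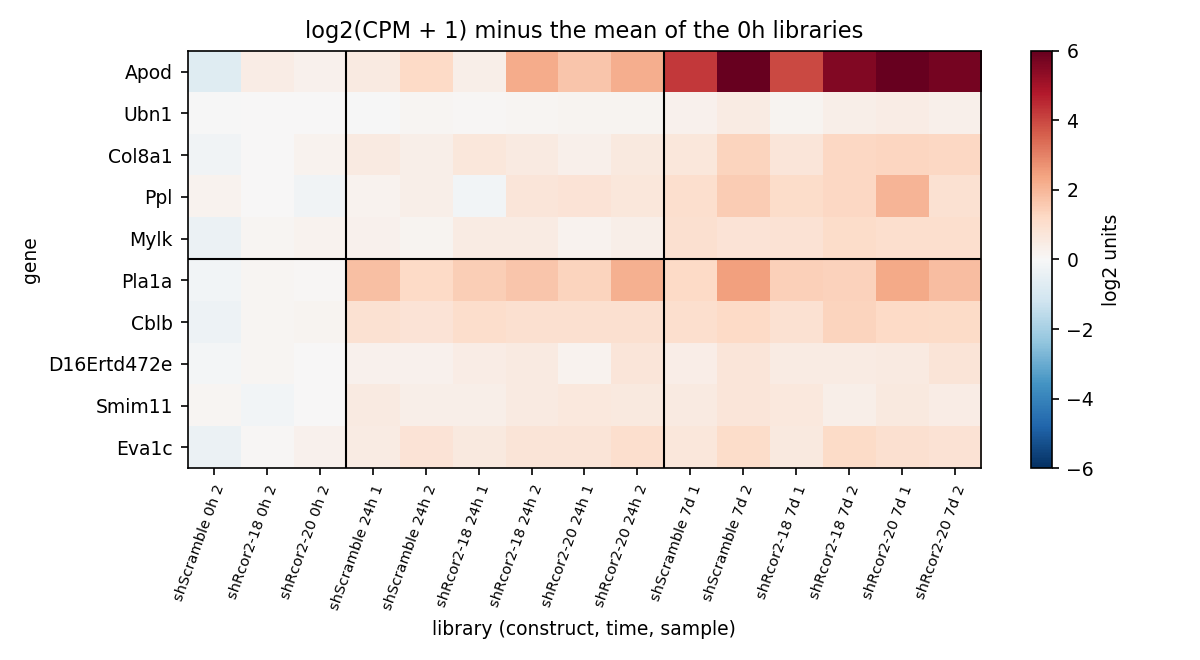
Log2(CPM + 1) minus the mean of the 0h libraries, by library (columns, grouped by time) for Apod and the 4 rows closest to it (top) and Pla1a and the 4 closest to it (bottom). Apod, 7.84 CPM on average at 0h and 426 CPM at 7d, is by far the darkest row, and Pla1a has its step between 0h and 24h.

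Other members of the pathways of both proteins could be read only where they lie in the stretch. Apod was the only 1 of 11 lipocalins there, and none of 13 apolipoproteins or 3 lysophosphatidylserine receptors was. Of 9 genes of the pancreatic lipase family, 3 were: beside Pla1a, the phosphatidic acid phospholipases Liph and Lipi had means of 0.266 and 0.030 CPM and reached at most 0.888 and 0.444 CPM in any of the 15 libraries, where 3 counts are worth 0.479 to 0.875 CPM.

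Few lipid genes of the stretch passed the test between times, as few rows did in general. Of 20 such enzymes and carriers 10 were tested, and edgeR called 0 at 24h against 0h, 1 at 7d against 0h and 0 at 7d against 24h. In each of these comparisons 3 had an unadjusted p under 0.05, and DESeq2 called 3, 1 and 2. Over all rows tested 1.85%, 5.76% and 2.34% were called in these comparisons, and in the stretch 1.34%, 6.17% and 2.95% of 373 rows were called higher and 1.07%, 5.09% and 2.14% lower. The median log2 difference of the 10 was 0.09, 0.11 and 0.01, against 0.06, 0.07 and -0.02 over all rows. Abcc1, an exporter of lipid mediators and glutathione conjugates, was the 1 called: it fell from 438 ± 5.59 CPM at 0h (mean ± SD, 3 libraries) to 278 ± 32.8 CPM at 7d (n = 6; log2 difference -0.65 ± 0.12, edgeR adjusted p = 0.016). That call was lost without sample 2 of shScramble at 0h (adjusted p = 0.059) or without sample 2 of shRcor2-18 at 0h (0.058). Atp13a3, a polyamine transporter of the P5 ATPase family, was at 660 ± 45.6 CPM at 0h and 778 ± 76.3 CPM at 7d. Pcyt1a, which makes CDP-choline for phosphatidylcholine, was at 330 ± 16.7 and 342 ± 44.98 CPM, and Abcc5, another exporter, at 239 ± 26.7 and 250 ± 32.6 CPM. None of these 3 passed the test at 7d against 0h.

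Secreted proteins of the stretch moved in both directions. Of 23 listed, Apod and Pla1a left aside, 13 were tested. At 24h against 0h edgeR called 1 higher and 1 lower. The shares called higher and lower were 1.47% and 0.379% of all rows, and 1.34% and 1.07% of 373 stretch rows. With the sample number within construct as a replicate block edgeR called 1 of the secreted genes higher and 0 lower. At 7d against 0h edgeR called 2 higher and 2 lower. Here the shares were 3.27% and 2.49% of all rows, and 6.17% and 5.09% of the stretch rows. With that block edgeR called 2 of the secreted genes higher and 3 lower. The median log2 difference of the 13 was 0.03 at 24h and 0.32 at 7d against 0h, with 0.06 and 0.07 over all rows. Adamts1, a metalloprotease of the extracellular matrix, rose from 403 ± 159 CPM at 0h (n = 3) to 2425 ± 510 CPM at 24h (n = 6) and stood at 3407 ± 1022 CPM at 7d, with a log2 difference of 3.16 ± 0.28 from 0h to 7d (edgeR adjusted p = 0.00090). Col8a1 rose by 1.10 ± 0.17 from 0h to 7d (edgeR adjusted p = 0.0097), a call lost with the same replicate block (adjusted p = 0.051). Fstl1, a follistatin-like glycoprotein, at 1184 ± 288 CPM at 0h and 2121 ± 526 CPM at 7d, missed the threshold (edgeR adjusted p = 0.066), as did App, the amyloid precursor, at 1223 ± 184 and 996 ± 204 CPM (adjusted p = 0.39).

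The secreted genes called lower were named after their values were seen. Adamts5, an aggrecanase, fell from 205 ± 19.5 CPM at 0h (n = 3) to 79.7 ± 7.90 CPM at 7d (n = 6; log2 difference -1.36 ± 0.13, edgeR adjusted p = 0.0012), and it was the gene called lower at 24h, a call lost with the same block (adjusted p = 0.069). Ccdc80, a matrix glycoprotein, fell from 1549 ± 39.2 to 630 ± 180 CPM (-1.31 ± 0.22, edgeR adjusted p = 0.013), which was lost without sample 2 of shRcor2-18 at 0h (adjusted p = 0.060). Masp1, a protease of the lectin pathway of complement, fell from 24h to 7d by 0.75 ± 0.14 (edgeR adjusted p = 0.036), and 12 of 24 alternatives did not call it. In that comparison 1.18% of all rows were called lower and 1.16% higher, against 2.14% and 2.95% of 373 stretch rows. Beside these genes, Apod had the larger difference from 24h to 7d, but it was chosen for that difference.

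Markers of other cells in the stretch were few. Of 6 adipocyte markers only Adipoq lies there, and its level was 0 to 0.666 CPM over the 15 libraries. Of 8 leukocyte markers 3 lie there, Btla, Cd80 and Cd86, and their summed level was 158 to 194 CPM at 0h, 165 to 196 CPM at 24h and 211 to 297 CPM at 7d. Most of this sum was Cd80, with means of 169, 173 and 212 CPM at 0h, 24h and 7d. Cd86 had no count in any of the 15 libraries, which allows at most 0.479 to 0.875 CPM per library. Btla rose from 2.66 ± 1.02 CPM at 0h (mean ± SD, 3 libraries) to 43.9 ± 20.5 CPM at 7d (6 libraries), with 7.59 ± 3.38 CPM at 24h. Its log2 difference from 0h to 7d was 4.08 ± 0.71 (edgeR adjusted p = 0.015), and the call was lost without sample 2 at 0h of shScramble (adjusted p = 0.054) or of shRcor2-18 (0.061). Its part in the levels of Apod was not tested. The 4 DNA replication genes tested had a median log2 difference of -0.56 from 0h to 7d. Mcm4 was at 500 ± 140 CPM at 0h (n = 3) and 267 ± 76.0 CPM at 7d (n = 6; log2 difference -0.88 ± 0.29, edgeR adjusted p = 0.14), and edgeR adjusted p-values were 0.28 for Cdc45, 0.39 for the clamp loader Rfc4 and 0.61 for the replisome protein Donson. In that comparison edgeR called 0 of the 4, with 1 at an unadjusted p under 0.05, and DESeq2 called 1. Over all rows tested, edgeR called 5.76% there, and of 373 stretch rows it called 6.17% higher and 5.09% lower.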

How the data were processed

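RNA-seq was done on 18 libraries of MC3T3-E1 cells. What the authors deposited is a single matrix of unnormalised counts, with 40620 rows for genes. Reads were 100 bp long, per the labels' protocols. FastQC, TopHat2 2.0.9, the build mm9, DESeq and DESeq2 are named, per the submitters' processing notes; for the counting program and its use of strand, nothing is given in the sources used here. Identifiers matched GENCODE vM21 on GRCm38 for 97.6% of rows, which gave names, order and exon lengths.

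Apod and Pla1a, the gene lists and the checked stretch were chosen with earlier results of these data known. The model was edgeR 4.0.16 in R 4.3.3: filterByExpr, TMM, glmQLFit (robust) and glmQLFTest, 9 group means, 15 libraries, 12930 rows tested, 6 residual degrees of freedom, and Benjamini-Hochberg adjustment over all rows with a threshold of 0.05. The 3 libraries of sample 1 at 0h were left out. A standard error is the log2 difference divided by the square root of F. CPM were computed from the counts over each library's total after TMM scaling. Named were Apod and Pla1a, the 5 rows most like each, the 2 nearest coding neighbours on each side, and up to 4 members of each list with the highest mean CPM. A row that this rule names is not reported here. Deviations of same-numbered samples of a construct at 24h and 7d correlated at 0.48 to 0.59 over the stretch, in all 3 constructs. Over all rows tested the correlation was only 0.045 to 0.098, and any pairing of these samples is inferred from the values. The main model has no block, so its standard errors, intervals and p-values do not use such a pairing. Blocks were run as alternatives, and blocked values stand beside the results they change. The scripts were tested on simulated data. Alternatives were RLE factors, no scaling, no filter on low counts, DESeq2 1.42.0, the stretch alone, all 18 libraries, replicate blocks, and leaving out each library. An alternative added after the data were examined left out all 0h libraries. The promoter is from RefSeq; none was used for Pla1a.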

Additional observations from a re-analysis of the deposited data

How the results depend on the processing

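Both genes stayed uncalled in all 12 construct tests under each of 23 alternatives, and none of these gave an unadjusted p under 0.05. The log2 difference of Apod from 24h to 7d ran from 3.69 to 4.64 over 24 alternatives, and that from 0h to 7d from 5.29 to 6.42. That of Pla1a from 0h to 24h ran from 1.37 (all 18 libraries) to 1.95. Apod's highest over lowest library at 7d was 4.75 to 5.87, and Pla1a's 2.19 to 2.61.

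Counts of rows called moved more. From 24h against 0h, 7d against 0h and 7d against 24h, edgeR called 239, 745 and 303 rows, DESeq2 578, 1406 and 1076, and the stretch alone, with fewer rows tested, 21, 87 and 59. All 18 libraries gave 38 for 7d against 24h. Leaving out 1 library gave 126 to 231, 310 to 760 and 120 to 307. For hairpins against shScramble at 24h, at 7d and averaged, shRcor2-20 against shRcor2-18 at 24h and at 7d, and the change of the hairpin difference, edgeR called 2, 5, 6, 2, 4 and 7, and DESeq2 29, 21, 21, 31, 27 and 33. All 18 libraries and the stretch alone each gave 0 in these 6. Leaving out 1 library gave 2 to 12, 5 to 15, 4 to 14, 0 to 2, 1 to 11 and 4 to 11. Without a filter, hairpins at 24h gave 4 and the hairpins against each other at 24h 5, and library size alone gave 1 for the latter. The causes were not tested.

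With the sample number as a replicate block, shRcor2-20 against shRcor2-18 gave 0 rows at 24h and 1 at 7d. With the number within construct as a replicate block, the 3 time comparisons gave 56, 432 and 169 rows and the change of the hairpin difference 1. Of the genes named in the report, Adamts5 at 24h and Col8a1 at 7d against 0h lost their call under the latter block. Apod from 24h to 7d was 4.20 and 4.11 under these blocks. Counts at 0h were 17 to 47 for Apod and 16 to 22 for Pla1a, which limits their precision there.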
